A study of Mus musculus with 12 samples.

Results

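Megakaryocytes are the marrow cells that shed platelets, and 34 of their genes were followed here in sorted mouse stem and progenitor cells. The 34 come from a list of names drawn up with earlier results of these data known, so their counts are not independent evidence. They comprise platelet adhesion receptors, receptors for soluble agonists, granule cargo, transcription factors, and cytoskeletal and signalling genes. All 34 were found in the gene annotation, and 33 passed the low-count filter, among 15012 genes tested and 20696 genes with at least 1 read. The remaining member, the serotonin transporter gene Slc6a4, had 0 reads in all 12 libraries, and a count of 0 allows up to 3 reads per library (95% confidence, counting error only).

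RNA came from Flk2- Lin-Sca-1+Kit+ (LSK) bone marrow cells, the compartment of blood stem cells and their earliest multipotent progeny, sorted by flow cytometry. There were 12 polyA-selected libraries, 3 for each of 4 genotypes, and each carried its own mouse number. Mdmx-Tg/Pu.1-URE-/- mice (the double mutant) carry an Mdmx transgene and lack both copies of URE, an element upstream of Spi1 that regulates it, and Spi1 encodes the transcription factor PU.1. Pu.1-URE-/- mice lack only the element, Mdmx-Tg mice carry only the transgene, and Wild-type mice have neither change. MDMX, the product of Mdm4, inhibits p53. The transgene's promoter, the strain, the age and the sex of the mice, and whether any library pooled animals, are not given in the sources used here. The comparisons ask what loss of the element does, with and without the transgene, and what the transgene does, with and without the element.

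Each library held 47271286 to 55067735 estimated reads. Mdm4 stood at 163 to 535 CPM (reads per 1000000 of the TMM-scaled library) in the 6 transgenic libraries and at 35.8 to 93.9 CPM in the 6 others. Total Spi1 did not separate the genotypes, with 0.0198 to 23.9 CPM in the 6 libraries without the element and 3.69 to 37.98 CPM in the 6 with it, and since the element lies outside the transcript these reads do not check its deletion. Immunoglobulin genes took 0.131% to 31.1% of the reads of a library, most in Wild-type 1, and Mdmx-Tg 2 and double-mutant 3 had the fewest genes with 10 reads or more (12824 and 12952, against up to 14117). The common biological coefficient of variation was 0.796. P-values rest on how far libraries of one genotype spread.

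A megakaryocyte stores clotting and adhesion proteins and chemokines in alpha granules and loads them into the platelets it forms. Platelets bind von Willebrand factor through the GPIb-IX-V complex, collagen through GPVI, and fibrinogen through the integrin of the subunits encoded by Itga2b and Itgb3. Thrombin, ADP and ATP receptors amplify the response. Several of these genes, Vwf and Itga2b among them, are also read in stem cells and early progenitors primed toward platelets, so their RNA in LSK cells need not come from megakaryocytes. In bulk RNA, fewer cells of a type and less RNA per cell cannot be told apart.

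The members covered a wide range of levels per transcript length. By median TPM over the 12 libraries (the authors' values, summed per gene), 5 members stood at 100 or more, 7 between 10 and 100, 14 between 1 and 10, and 8 below 1. The 5 highest were Nfe2 (267.6 TPM), which encodes a subunit of the transcription factor NF-E2 needed for platelet release, the tetraspanin gene Cd9 (253 TPM), Bin2 (192 TPM), Rgs18 (190.4 TPM) and Fermt3 (107 TPM). Their ranges over the libraries overlapped, from 126 to 398.5 TPM for Nfe2, 48.7 to 723.5 TPM for Cd9 and 54.1 to 169 TPM for Fermt3. Of the genes that define the lineage, Pf4 had a median of 34.7 TPM, Itga2b 18.8, Gp9 6.18, Gp5 4.25, Gp1ba 2.56 and Gp6 0.0229. The platelet tubulin gene Tubb1, a late megakaryocyte gene, had a median of 0.

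**Figure D1:**
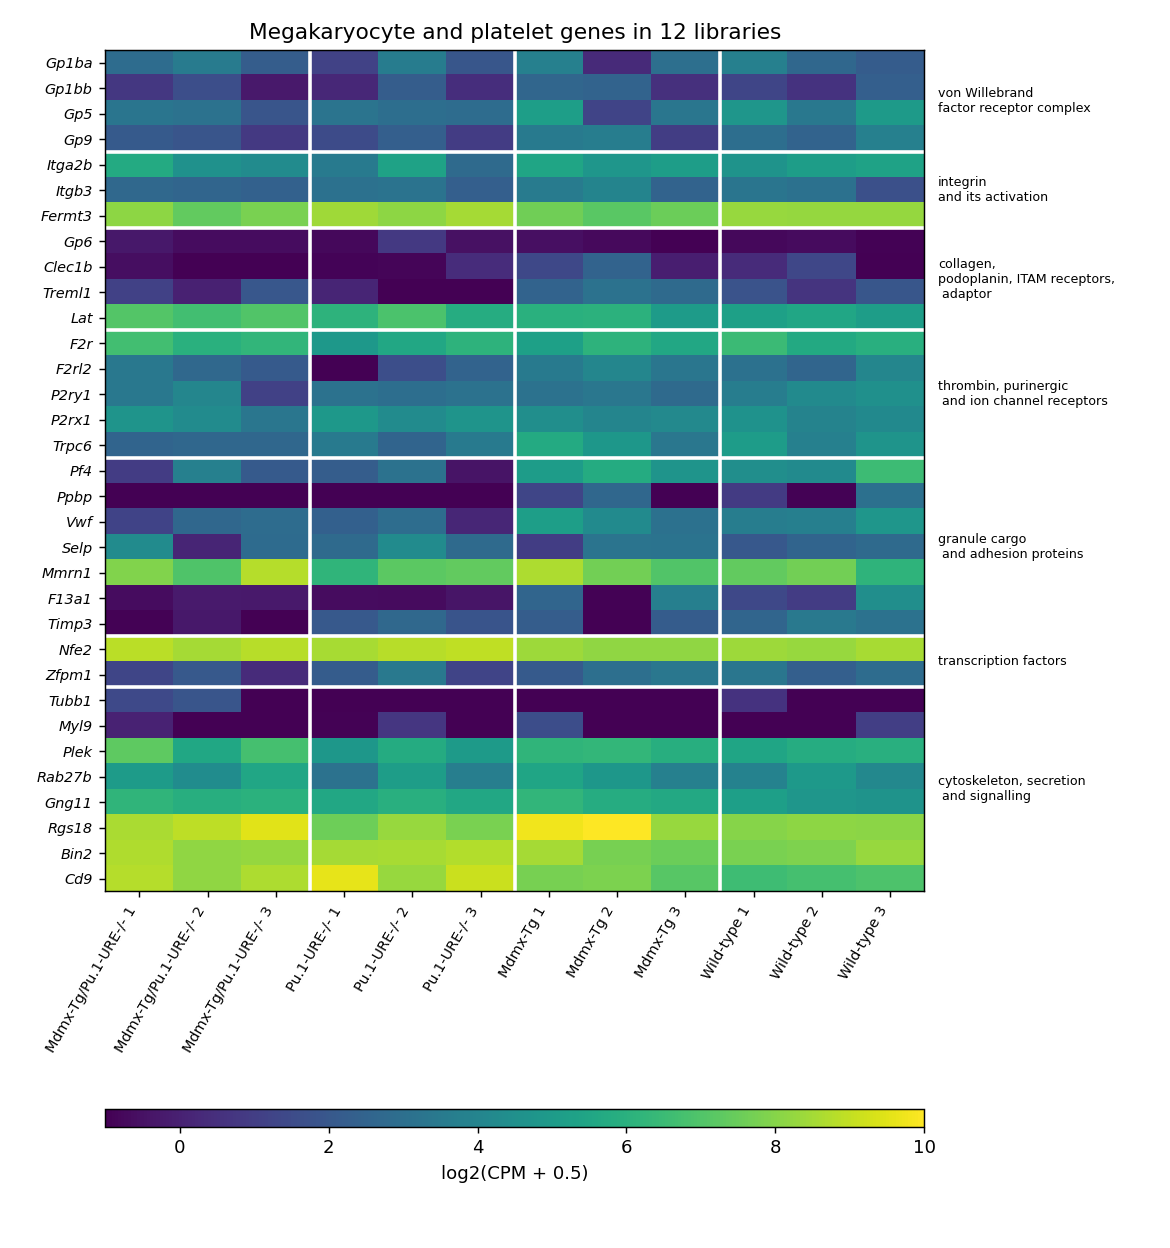
Heat map of log2(CPM + 0.5) for the 33 members with reads (rows, grouped by role) in the 12 libraries (columns, by genotype). Pf4, Ppbp, Vwf and F13a1 are dark in most libraries of the left 2 genotypes, which lack the Spi1 element, and Cd9 is bright there.

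Promoter sequence was matched for 27 of the 34 members, from the RefSeq table for GRCm38.p6, as the 250 bases before and 50 bases after a gene's start. Those of 5 members are shown: the neighbouring chemokine genes Pf4 and Ppbp, both lower without the element, and Trpc6, Cd9 and Lat, whose differences kept their call whichever single library was left out. Capitals mark matches, on either strand, to short motifs. Those of GATA factors were searched as AGATAA and, equally, TGATAA. Those of ETS factors, the family of PU.1, were CGGAAG and AGGAAG. For NF-E2 the letters were TGAGTCA and TGACTCA. For RUNX factors they were TGTGGT and TGCGGT.
Pf4: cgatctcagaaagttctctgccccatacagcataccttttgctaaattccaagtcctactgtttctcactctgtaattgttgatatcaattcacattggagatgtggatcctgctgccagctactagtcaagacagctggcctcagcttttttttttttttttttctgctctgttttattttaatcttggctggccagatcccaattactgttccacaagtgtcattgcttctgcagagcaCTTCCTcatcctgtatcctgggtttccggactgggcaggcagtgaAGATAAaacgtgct
Ppbp: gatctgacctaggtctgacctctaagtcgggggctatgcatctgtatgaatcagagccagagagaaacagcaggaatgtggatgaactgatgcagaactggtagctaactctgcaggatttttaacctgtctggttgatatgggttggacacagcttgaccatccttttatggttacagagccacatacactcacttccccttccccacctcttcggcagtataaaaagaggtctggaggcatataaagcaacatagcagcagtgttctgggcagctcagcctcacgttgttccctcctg
Trpc6: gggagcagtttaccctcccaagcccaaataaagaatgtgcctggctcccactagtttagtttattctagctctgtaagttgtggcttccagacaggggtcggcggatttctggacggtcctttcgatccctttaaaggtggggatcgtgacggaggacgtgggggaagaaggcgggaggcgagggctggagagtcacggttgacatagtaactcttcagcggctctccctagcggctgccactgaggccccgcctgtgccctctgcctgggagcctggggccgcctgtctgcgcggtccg
Cd9: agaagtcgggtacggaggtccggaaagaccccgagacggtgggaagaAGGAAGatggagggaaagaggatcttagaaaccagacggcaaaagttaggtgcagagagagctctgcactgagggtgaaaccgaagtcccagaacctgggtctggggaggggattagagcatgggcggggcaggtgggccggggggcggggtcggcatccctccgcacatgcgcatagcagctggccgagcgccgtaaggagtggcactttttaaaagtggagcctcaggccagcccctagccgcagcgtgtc
Lat: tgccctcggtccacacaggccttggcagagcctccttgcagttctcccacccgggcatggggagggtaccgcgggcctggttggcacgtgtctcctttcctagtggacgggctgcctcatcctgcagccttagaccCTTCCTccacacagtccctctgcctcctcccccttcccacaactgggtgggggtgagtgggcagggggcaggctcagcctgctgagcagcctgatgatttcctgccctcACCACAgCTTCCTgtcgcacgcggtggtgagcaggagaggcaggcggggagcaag
The windows lie at chr5:90772185-90772484 (plus strand) for Pf4, chr5:90768268-90768567 (plus) for Ppbp, chr9:8543892-8544191 (plus) for Trpc6, chr6:125494711-125495010 (minus) for Cd9 and chr7:126369519-126369818 (minus) for Lat. The Pf4 window held 1 ETS match starting at position -9 and 1 GATA match starting at position 36, counted from the start. The Lat window held 2 ETS matches and 1 RUNX match, the Cd9 window 1 ETS match, and those of Ppbp and Trpc6 held none of the 4 motifs. The F13a1 window, not shown, held 3 ETS matches and none of the other motifs. Among the 27 member windows, 8 (29.6%) held a GATA match and 15 (55.6%) an ETS match, against 18.6% and 46.5% of all 32851 windows in the table. Members count 1 window each, whereas the 32851 windows cover 27025 genes, so these shares are not of like units. NF-E2 matches stood in 2 member windows (7.41%, against 5.2% of all) and RUNX matches in 6 (22.2%, against 22.4%). In the 5 windows shown no match to one motif overlapped a match to another, and a match is a description of letters, not of binding.

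In the 6 libraries without the Spi1 element, compared with the 6 that have it, 4 of 7 granule cargo and adhesion genes (Pf4, Ppbp, Vwf and F13a1) and the channel gene Trpc6 fell. The tetraspanin gene Cd9, the adaptor gene Lat and the transcription factor gene Nfe2 rose. By edgeR's quasi-likelihood test at an adjusted p below 0.05, 8 of 33 tested members (24.2%) were called, against 11.9% of all genes tested. The 3 higher calls are a share near that of all genes called higher (8.08%), and so no result about the members as a group. The 5 lower calls stand beside 3.81% of all genes called lower, and no role group was tested as such. At unadjusted p, 15 members passed, 5 higher and 10 lower, and 26.9% of all genes did. The median log2 change over the tested members was -0.43, with 13 above 0 and 20 below, and that over all genes was 0.

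Pf4, the alpha-granule chemokine platelet factor 4 (chromosome 5, 90772435 to 90773383, GRCm38), had 1.47, 13.5 and 3.85 CPM in double-mutant libraries 1 to 3, and 4.27, 8.40 and 0.256 CPM in Pu.1-URE-/-. It had 33.3, 53.8 and 25.1 CPM in Mdmx-Tg, next to 20.9, 18.8 and 93.1 CPM in Wild-type. All 6 libraries without the element lay below all 6 with it, which held for 1.89% of all genes. The mean was 5.29 ± 4.90 CPM without the element and 40.8 ± 28.6 CPM with it (SD, n = 6 each), a 7.82-fold fall (log2 change -2.97 ± 0.79, SE, edgeR adjusted p = 0.0352).

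Ppbp, which encodes the platelet chemokine precursor pro-platelet basic protein, ends 2371 bases before Pf4 (90768518 to 90770063). It had no read in any of the 6 libraries without the element. With the element it had 1.99, 5.97 and 0 CPM in Mdmx-Tg, next to 1.38, 0.0182 and 7.79 CPM in Wild-type, so 1 library there was also at 0 and 1 held a single read. The mean of the 6 libraries with the element was 2.86 ± 3.26 CPM (SD). A limit of 3 reads summed over the 6 libraries without the element was 296-fold below that mean (edgeR adjusted p = 0.0403). That fold covers counting error at 0 only, not the spread between the libraries with the element.

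Vwf (chromosome 6, 125546774 to 125686679), the adhesive ligand of the GPIb-IX-V complex, had 1.81, 5.97 and 6.84 CPM in the double mutant and 4.66, 7.06 and 0.631 CPM in Pu.1-URE-/-. It had 35.9, 18.7 and 8.21 CPM in Mdmx-Tg, next to 12.3, 13.1 and 27.2 CPM in Wild-type. Here too the 6 and 6 libraries did not overlap, with 7.06 CPM the highest without the element and 8.21 CPM the lowest with it. The mean was 4.50 ± 2.70 CPM without and 19.2 ± 10.5 CPM with the element (SD, n = 6 each; 4.27-fold lower; log2 change -2.09 ± 0.60, SE, edgeR adjusted p = 0.0457). Of the Vwf reads, 47.8% were assigned to a 2686-base transcript annotated for nonsense-mediated decay, with 0 to 167 estimated reads without and 224 to 881 with the element. The 8834-base full-length transcript took 21.4%, and its reads overlapped, with a median of 43.0 without and 40.5 with the element.

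F13a1 encodes the A chain of clotting factor XIII, which cross-links fibrin and is also made by macrophages. It stood at 0.141, 0.372 and 0.337 CPM in the double mutant and at 0.143, 0.123 and 0.276 CPM in Pu.1-URE-/-. Mdmx-Tg had 5.44, 0.0196 and 12.9 CPM and Wild-type 2.12, 1.43 and 21.2 CPM. The groups overlapped through Mdmx-Tg 2, the lowest of all 12 libraries (log2 change -4.96 ± 1.22, SE, edgeR adjusted p = 0.025).

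The other 3 granule and adhesion members did not pass by edgeR. The multimerin gene Mmrn1, the most abundant of this group and a binding partner of factor V, had 196.9 ± 127.8 CPM without and 195.3 ± 114 CPM with the element (SD, n = 6 each). Selp, the gene of P-selectin, ranged from 0.595 to 19.1 CPM without the element and from 1.48 to 8.93 CPM with it. The metalloproteinase inhibitor gene Timp3 stood at 0.0201, 0.316 and 0 CPM in the double mutant, 3.74, 6.14 and 3.10 CPM in Pu.1-URE-/-, 4.22, 0 and 4.13 CPM in Mdmx-Tg, next to 5.56, 10.4 and 8.26 CPM in Wild-type. Its low values were those of the 3 double-mutant libraries and Mdmx-Tg 2 (element loss log2 change -2.75 ± 1.20, SE, edgeR adjusted p = 0.166).

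**Figure D2:**
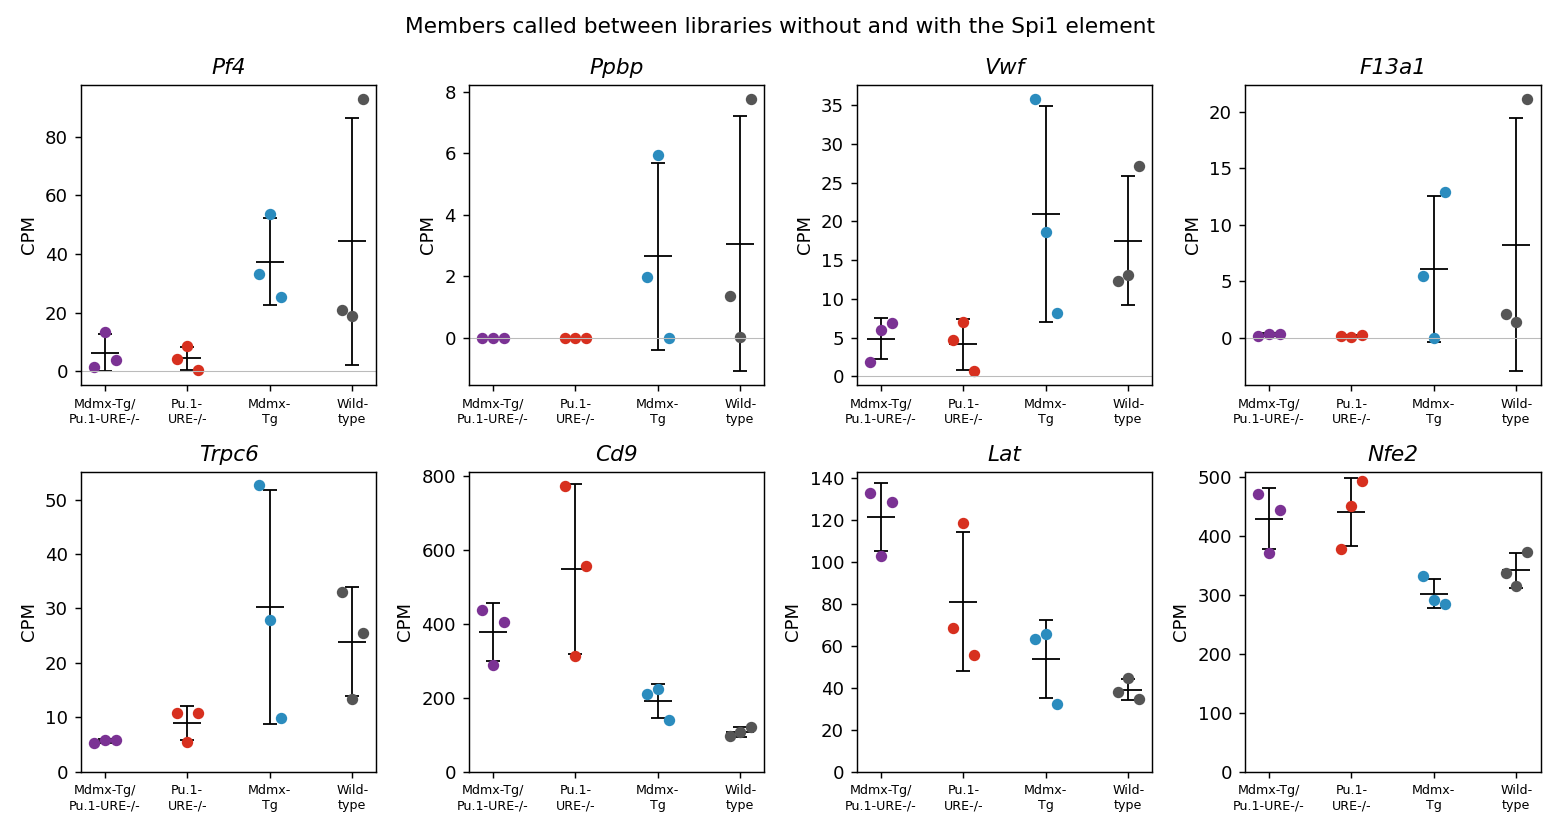
CPM of the 8 members called between libraries without and with the Spi1 element, by genotype (dots, single libraries; bars, mean ± SD, n = 3, which can reach below 0). Pf4, Ppbp, Vwf, F13a1 and Trpc6 are low in both genotypes without the element, and Cd9, Lat and Nfe2 are high there.

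The receptors of adhesion ligands held no edgeR call. The 4 genes of the GPIb-IX-V complex had a median log2 change of -1.15. Of the 4, 2 passed at unadjusted p, Gp5 and Gp9, and 26.9% of all genes did. Gp5 had 9.13, 8.43 and 3.21 CPM in the double mutant and 8.90, 7.46 and 6.94 CPM in Pu.1-URE-/-, against 34.9, 1.88 and 9.51 CPM in Mdmx-Tg, next to 27.3, 10.05 and 31.3 CPM in Wild-type. Apart from Mdmx-Tg 2, every library with the element was above every library without it (log2 change -1.36 ± 0.59, SE, edgeR adjusted p = 0.166, and 0.0489 without Mdmx-Tg 2). Leaving out another library took the edgeR adjusted p of Gp5 up to 0.418. Gp9 averaged 2.77 ± 1.31 CPM without and 8.44 ± 4.61 CPM with the element (SD, n = 6 each; log2 change -1.60 ± 0.59, SE, edgeR adjusted p = 0.104, and 0.0352 without Mdmx-Tg 3). That of Gp9 reached 0.199 when another library was left out. Gp1ba ranged from 1.76 to 11.67 CPM without the element and from 0.746 to 13.4 CPM with it. Gp1bb values are uncertain, because 91.1% of its exon bases are shared on the same strand with Sept5 (log2 change -0.95 ± 0.79, SE, edgeR adjusted p = 0.501).

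The integrin genes overlapped between groups, and none of the 3 passed at unadjusted p. Itga2b, which encodes CD41, ranged from 6.45 to 52.7 CPM without the element and from 24.6 to 43.5 CPM with it, and Itgb3, which encodes CD61, from 4.48 to 8.59 and from 2.74 to 14.95 CPM. Fermt3 (kindlin-3, which switches platelet integrins on) stood at 165 to 364.5 CPM without and at 145 to 315 CPM with the element.

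Among the collagen and podoplanin receptors and their adaptor, only Lat passed by edgeR. LAT is a membrane adaptor that is phosphorylated downstream of GPVI in platelets and of the antigen receptor in T cells. Lat (chromosome 7, 126363824 to 126369570) had 133, 102.5 and 128.5 CPM in the double mutant and 68.7, 118 and 55.7 CPM in Pu.1-URE-/-. It had 63.3, 65.8 and 32.3 CPM in Mdmx-Tg, next to 37.8, 44.8 and 34.9 CPM in Wild-type. The groups overlapped only in that Pu.1-URE-/- 3 lay below the 2 highest Mdmx-Tg libraries. The mean was 101 ± 32.1 CPM without and 46.5 ± 14.6 CPM with the element (SD, n = 6 each; 2.16-fold higher; log2 change 1.11 ± 0.23, SE, edgeR adjusted p = 0.0105).

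The other members of this group did not pass by edgeR. Treml1, which encodes a receptor of the alpha-granule membrane, had 1.67, 0.502 and 3.47 CPM in the double mutant and 0.593, 0 and 0 CPM in Pu.1-URE-/-, against 5.21, 8.44 and 6.42 CPM in Mdmx-Tg, next to 3.05, 1.07 and 3.35 CPM in Wild-type. Apart from double-mutant 1 and 3, the libraries without the element lay below all those with it (log2 change -2.74 ± 1.14, SE, edgeR adjusted p = 0.148, and 0.00766 without Pu.1-URE-/- 1). Leaving out another library took the edgeR adjusted p of Treml1 up to 0.239. With all libraries, DESeq2 and limma-voom both called Treml1 lower. Clec1b, the podoplanin receptor gene, reached at most 0.828 CPM without the element and ranged from 0 to 5.12 CPM with it (log2 change -3.56 ± 1.59, SE, edgeR adjusted p = 0.178). Gp6, the collagen receptor gene, was at or below 1.29 CPM in every library.

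Of the receptors for soluble agonists and the ion channels, only Trpc6 passed. TRPC6 is a calcium-permeable channel of the platelet membrane. Trpc6 (chromosome 9, 8544142 to 8680741) had 5.29, 5.90 and 5.87 CPM in the double mutant and 10.8, 5.39 and 10.7 CPM in Pu.1-URE-/-. It had 52.8, 27.9 and 9.92 CPM in Mdmx-Tg, next to 33.0, 13.3 and 25.5 CPM in Wild-type. Of the libraries with the element, only Mdmx-Tg 3 fell within the range of those without it. The mean was 7.32 ± 2.66 CPM without and 27.1 ± 15.4 CPM with the element (SD, n = 6 each; 3.77-fold lower; log2 change -1.91 ± 0.40, SE, edgeR adjusted p = 0.0112).

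F2r, the gene of the thrombin receptor PAR1 and the most abundant gene of this group, had 64.3 ± 24.3 CPM without and 59.2 ± 18.9 CPM with the element (SD, n = 6 each). F2rl2 encodes PAR3, which in the mouse helps thrombin act on platelets, and ranged from 0 to 10.2 CPM without and from 5.55 to 15.97 CPM with it. The ADP receptor gene P2ry1 ranged from 1.69 to 15.9 CPM without and from 6.38 to 22.3 CPM with the element, with 23.1% of its exon bases under an opposite-strand gene. The ATP-gated channel gene P2rx1 ranged from 9.34 to 28.6 CPM without and from 14.5 to 23.5 CPM with it. All 4 overlapped between groups, and none passed.

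Cd9 gave the lowest adjusted p of all members. CD9 is a tetraspanin abundant on platelets and present on several other blood cells. Cd9 (chromosome 6, 125460266 to 125494791) had 437.5, 288.5 and 405 CPM in the double mutant and 772, 313 and 556 CPM in Pu.1-URE-/-. It had 211, 225 and 139 CPM in Mdmx-Tg, next to 95.5, 106 and 121 CPM in Wild-type. Every library without the element was above every one with it, which held for 4.89% of all genes. The mean was 462 ± 179.6 CPM without and 149.6 ± 55.1 CPM with the element (SD, n = 6 each; 3.16-fold higher; log2 change 1.66 ± 0.22, SE, edgeR adjusted p = 0.000946).

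Of the transcription factor genes, Nfe2 (chromosome 15, 103248212 to 103258403) rose and Zfpm1 did not pass. Nfe2 had 471, 371.3 and 445 CPM in the double mutant, 378, 450.0 and 492.5 CPM in Pu.1-URE-/-, 331, 291 and 285 CPM in Mdmx-Tg, next to 337, 314 and 373.1 CPM in Wild-type. The groups touched, since double-mutant 2 lay just below Wild-type 3. The mean was 435 ± 49.5 CPM without and 322 ± 32.6 CPM with the element (SD, n = 6 each; 1.35-fold higher; log2 change 0.44 ± 0.11, SE, edgeR adjusted p = 0.033). Zfpm1, which encodes the GATA1 cofactor FOG-1, ranged from 0.773 to 10.5 CPM without and from 3.77 to 9.76 CPM with the element.

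In the cytoskeletal, secretion and signalling group the 7 members besides Cd9 did not pass. Bin2, whose product bends membranes, had 362 ± 54.3 CPM without and 255 ± 69.7 CPM with the element (SD, n = 6 each; log2 change 0.50 ± 0.19, SE, edgeR adjusted p = 0.105, and 0.0267 without Mdmx-Tg 1). Gng11, a G-protein gamma subunit gene, had 59.2 ± 9.84 and 44.9 ± 19.4 CPM in the same order (log2 change 0.48 ± 0.16, SE, edgeR adjusted p = 0.0808). For Bin2, the edgeR adjusted p reached 0.284 when another library was left out. Rgs18, which encodes a brake on G-protein signalling in platelets, Plek, the gene of the protein kinase C substrate pleckstrin, and Rab27b, a gene of dense granule secretion, overlapped widely. Myl9, a myosin light chain gene, reached 2.49 CPM at most. Tubb1 had 2.21 CPM in double-mutant 1, 3.27 in double-mutant 2, 1.04 in Wild-type 1 and 0 in the other 9 libraries.

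**Figure D3:**
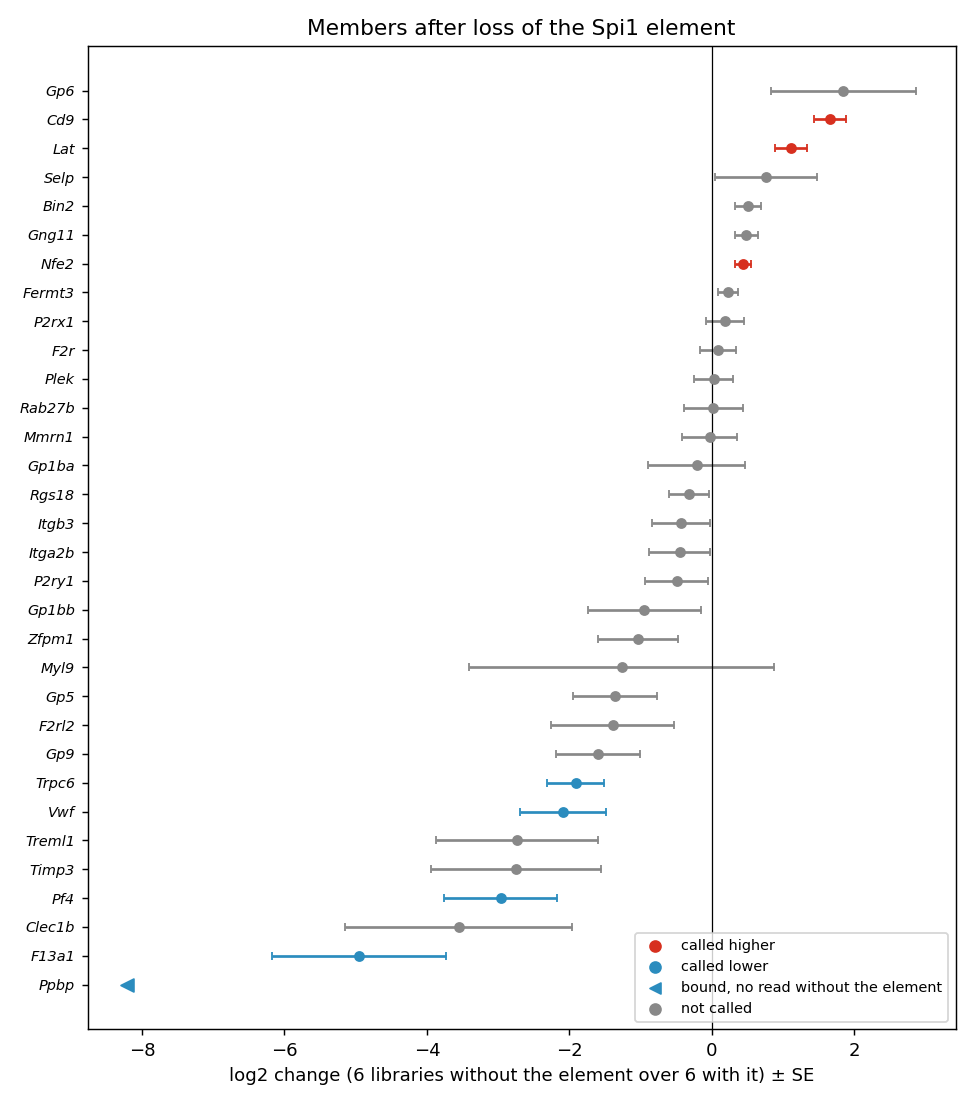
Log2 change (dots) ± SE of 32 members for 6 libraries without over 6 with the Spi1 element. Red and blue dots are called higher and lower, and grey dots are not called. The arrowhead marks the bound for Ppbp, which covers counting error only. Tubb1, read in 3 libraries, is not drawn. The called cargo genes stand at -2.09 for Vwf, -2.97 for Pf4 and -4.96 for F13a1. Clec1b and Treml1, not called by edgeR, lie as low, at -3.56 and -2.74 with wide bars.

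How firmly these calls stand differed between members. Cd9, Lat and Trpc6 were called whichever library was left out, at edgeR adjusted p of at most 0.00454, 0.039 and 0.0327. Pf4 lost its call without Wild-type 3, Mdmx-Tg 1, Mdmx-Tg 2, Pu.1-URE-/- 1, double-mutant 1 or double-mutant 3 (edgeR adjusted p = 0.0827, 0.055, 0.0664, 0.091, 0.0758 and 0.0835). F13a1 lost its call without Wild-type 3 or any single library lacking the element, at edgeR adjusted p of up to 0.0764. Vwf kept its call only without Mdmx-Tg 3 or Pu.1-URE-/- 2, Ppbp only without Wild-type 2 or Mdmx-Tg 3, and Nfe2 only without Pu.1-URE-/- 1 or double-mutant 2. Otherwise their edgeR adjusted p reached 0.0987, 0.0887 and 0.131. In every one of these fits the log2 change of Pf4, Vwf and F13a1 was below 0 and that of Nfe2 above 0. With all libraries kept, limma-voom called 6 members, Cd9, Lat, Nfe2, Pf4, Vwf and Treml1. Trpc6, F13a1 and Ppbp were not called by limma-voom. DESeq2 called 11 members, the same ones as edgeR with Gp9, Timp3 and Treml1 added, each of these lower. Without Wild-type 1, Mdmx-Tg 2 and double-mutant 3 together, 2 members were called, Cd9 and F13a1, and the edgeR adjusted p of Lat and Trpc6 was 0.0629 and 0.0772. With the mouse-number series as a term 3 were called, Cd9, Lat and Trpc6. That series was drawn from the mouse numbers for these fits and is not a recorded batch. All Pu.1-URE-/- mouse numbers lay below the higher numbers of Wild-type and the double mutant, so the term is partly tied to genotype.

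Markers of neutrophils moved with the element in the same libraries. All 11 tested of 13 neutrophil markers were called higher, against 8.08% of all genes tested. The other 2, Mmp8 and Mmp9, had no read without the element. The list's summed level was 33630 to 144200 CPM without the element and 851 to 2510 CPM with it. Among the 6 libraries without the element, Cd9 stood at 772, 556, 437.5, 313, 405 and 288.5 CPM where the neutrophil sum stood at 144200, 105800, 57120, 51970, 41250 and 33630 CPM. In the same order of libraries, Lat stood at 68.7, 55.7, 133, 118, 128.5 and 102.5 CPM, Pf4 at 4.27, 0.256, 1.47, 8.40, 3.85 and 13.5 CPM, and Vwf at 4.66, 0.631, 1.81, 7.06, 6.84 and 5.97 CPM. The 2 libraries highest in the neutrophil sum had the highest Cd9 and the lowest Lat, and the lowest in the sum had the lowest Cd9 and the highest Pf4, but not the highest Vwf. From the highest sum down, the libraries were Pu.1-URE-/- 1, Pu.1-URE-/- 3, double-mutant 1, Pu.1-URE-/- 2, double-mutant 3 and double-mutant 2. The order is thus partly tied to the transgene. The part of the neutrophil markers in the changes of Cd9, Lat, Nfe2 and the cargo genes was not tested.

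Markers of other cell types moved in both directions. Of all genes tested, 8.08% were called higher and 3.81% lower, and 26.9% passed at unadjusted p. Erythroid markers had 0 of 13 called by edgeR and 7 at unadjusted p (summed 1160 to 3134 CPM without and 1945 to 6260 CPM with the element). Endothelial markers, a lineage that also reads Vwf, had Cdh5 and Sox17 at 0 in all 12 libraries. Of 10 tested, 2 were called higher (Pecam1 and Egfl7) and 2 lower (Tek and Emcn), and the median log2 change was -0.505. The list's sum was higher without the element (256.8 to 358.4 CPM) than with it (167 to 222 CPM). Monocyte and macrophage markers had 2 higher (Lyz2 and Ly6c2) and 4 lower (Csf1r, Cd68, Ms4a6c and Ctss) of 11 called. They summed to 726 to 1869 CPM without and 318 to 1117 CPM with the element, but their median log2 change was -2.116. Of mast cell and basophil markers 1 was higher and 2 lower of 10, with 379 to 881 and 173 to 350.8 CPM. B and plasma cell markers had 1 lower of 9 called, with 665 to 3596 and 531 to 25870 CPM. The T and NK cell list, whose Trac had no read, had 1 higher of 6, Nkg7, and summed to 1581 to 3967 CPM without and 106 to 316 CPM with the element. The stromal list had 1 higher of 6, at 26.2 to 48.9 and 7.96 to 12.7 CPM. The 8 genes that define the megakaryocyte lineage summed to 18.6 to 76.6 CPM without and 73.95 to 189.5 CPM with the element, and 2 of them, Pf4 and Ppbp, were called lower. The part of any of these lists in the members' changes was not tested.

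Stem cell and sorting-gate genes also shifted. The gate genes were read in all libraries, with Kit at 165 to 261 CPM without and 270.2 to 328 CPM with the element, and Ly6a, which encodes Sca-1, at 41.9 to 66.7 and 15.0 to 97.2 CPM. Flt3, which encodes the Flk2 that the sort selected against, stood at 10.8 to 53.7 CPM without and 5.83 to 22.2 CPM with the element. Of 14 such genes, Flt3 and Cd48 were called higher and Kit, Slamf1, Mecom, Mllt3 and Hoxb5 lower in the 6 against 6 comparison. Of all genes tested, 8.08% were called higher and 3.81% lower, and the list was not tested as such. Slamf1, Mecom, Mllt3 and Hoxb5 mark long-term stem cells. The 14 genes summed to 618.6 to 1266 CPM without and 1018 to 1523 CPM with the element, and their part in the members' changes was not tested.

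Of 27 tested regulators of the megakaryocyte programme that are not among the 34, 4 were called, all lower, with a median log2 change over the 27 of -0.13. Of all genes 11.9% were called, 3.81% lower, and the list was not tested as such. Gata2, a GATA factor of stem and progenitor cells, had 20.9 CPM on average without and 60.6 CPM with the element (log2 change -1.53 ± 0.39, SE, edgeR adjusted p = 0.0277). Stat5a and Jak2, which relay the thrombopoietin signal, fell by 1.00 and 0.65 on the log2 scale (edgeR adjusted p = 0.0126 and 0.0128), and the homeobox gene Meis1 fell by 1.25 (edgeR adjusted p = 0.0451). The calls of Stat5a and Jak2 held whichever library was left out. Gata2 lost its call without Wild-type 1, Wild-type 3, Pu.1-URE-/- 3, double-mutant 2 or double-mutant 3, at edgeR adjusted p of up to 0.0669. Meis1 kept its call without only 3 libraries, Mdmx-Tg 3, Pu.1-URE-/- 2 and double-mutant 3, and its edgeR adjusted p otherwise reached 0.103. The remaining 23 did not pass.

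A further list of platelet genes gave calls in both directions, 15 higher and 5 lower of 49 tested (8.08% and 3.81% of all genes), with a median log2 change of 0.58. Serpine2, a protease inhibitor gene, had 401 CPM on average without and 11.8 CPM with the element (log2 change 5.07 ± 0.34, SE, edgeR adjusted p = 1.49e-05). The clusterin gene Clu stood at 443 and 4.21 CPM, the tetraspanin gene Cd63 at 1532 and 291 CPM, the thrombospondin gene Thbs1 at 73.5 and 11.5 CPM, and Rasgrp2, an activator gene of platelet Rap1, at 88.3 and 19.4 CPM, in the same order. Among the lower genes were the thromboxane synthase gene Tbxas1 (4.02 and 116 CPM, log2 change -4.97 ± 0.58, SE, edgeR adjusted p = 0.000372), the caveolar gene Cavin2 (0.679 and 14.6 CPM) and Gucy1a1, a subunit gene of the nitric oxide receptor (4.77 and 13.8 CPM). The others called lower were Fyb and Vamp8, and the others called higher F2rl3, Flna, Lcp2, Myh9, Nbeal2, Plcg2, Stom, Stxbp2, Tbxa2r and Tuba8. The calls of Gucy1a1, Vamp8, Fyb and Cavin2 each ended without 1 or more libraries, at edgeR adjusted p of up to 0.0504, 0.0587, 0.119 and 0.101. Serpine2, Clu, Cd63, Thbs1, Rasgrp2 and Tbxas1 kept theirs whichever library was left out, and the other higher calls were not followed this way. Several of these genes, Cd63, Clu and Thbs1 among them, are read in many cell types.

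Within each transgene background there were fewer calls. Leaving out Ppbp and Tubb1, 23 of 31 members had the same sign of change in both backgrounds and 8 had opposite signs. The same count over all genes is not given here, so this is no result about the members as a group. Without the transgene, in Pu.1-URE-/- against Wild-type, 1 of 33 members was called, Cd9, against 4.71% of all genes, and 10 passed at unadjusted p, against 19.8%. Cd9 averaged 547 ± 229.8 CPM in Pu.1-URE-/- and 108 ± 12.9 CPM in Wild-type (SD, n = 3 each; 5.09-fold higher; log2 change 2.35 ± 0.32, SE, edgeR adjusted p = 0.00235). With the transgene, in the double mutant against Mdmx-Tg, edgeR called 0 of 33 members, against 2.32% of all genes called, and 11 passed at unadjusted p, against 16.9%. DESeq2 called 6 members in each background, with Cd9, Lat, F13a1 and Ppbp among them in both, and of all genes it called 8.59% with and 12.5% without the transgene. Trpc6 came nearest by edgeR in the double mutant (log2 change -2.41 ± 0.58, SE, edgeR adjusted p = 0.0584, and 0.0169 without Mdmx-Tg 3). Leaving out another library took that edgeR adjusted p up to 0.185. Of the further platelet genes, 4 were called higher and 1 lower of 49 in the double mutant against Mdmx-Tg, and 10 higher and 1 lower in Pu.1-URE-/- against Wild-type. Of all genes, 1.67% were called higher and 0.646% lower in the former, and 3.84% and 0.866% in the latter. Among the regulators, Jak2 was called lower in the double mutant against Mdmx-Tg.

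The 2 contrasts share no library, so their values can be set side by side. The log2 change in the double mutant against Mdmx-Tg, and then in Pu.1-URE-/- against Wild-type, was -2.58 ± 1.11 and -3.36 ± 1.14 for Pf4, and -2.10 ± 0.85 and -2.09 ± 0.85 for Vwf (SE). For F13a1 it was -4.42 ± 1.69 and -5.49 ± 1.78, for Trpc6 -2.41 ± 0.58 and -1.42 ± 0.56, for Lat 1.17 ± 0.32 and 1.05 ± 0.32, and for Nfe2 0.51 ± 0.16 and 0.37 ± 0.16. These 6 members had the same sign in both backgrounds, at sizes that differed by less than either standard error except for Trpc6. They were picked by their call in the mean of these 2 contrasts, which favours a shared sign, so the agreement is not independent evidence. Among the 7 called members other than Ppbp, Cd9 differed most, with 0.98 ± 0.31 in the double mutant and 2.35 ± 0.32 in Pu.1-URE-/-. The test of that difference, the interaction of transgene and element loss, gave -1.37 ± 0.44 (SE, unadjusted p = 0.00959, edgeR adjusted p = 0.826). No member was called for the interaction by edgeR or DESeq2, 2 passed at unadjusted p, Cd9 and Tubb1, and 5.8% of all genes did. Mdmx-Tg itself averaged 192 ± 46.2 CPM of Cd9, against 108 ± 12.9 CPM in Wild-type.

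**Figure D4:**
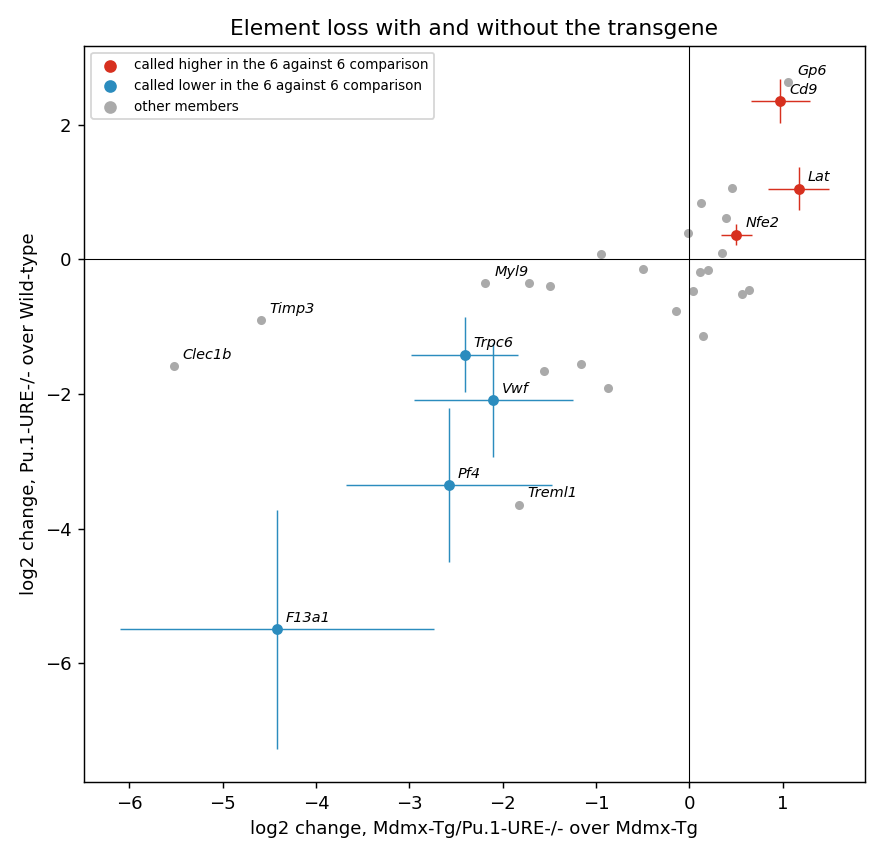
Log2 change on loss of the Spi1 element with the transgene (horizontal axis) and without it (vertical axis), for 31 members. Coloured dots with SE bars are called in the 6 against 6 comparison, grey dots are other members, and Ppbp and Tubb1 are not drawn. The 7 coloured members, picked by the mean of the 2 changes, which favours a shared sign, have the same sign in both. Cd9 is higher on the vertical axis (2.35) than on the horizontal (0.98).

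The Mdmx transgene gave no call among the members by edgeR, and 0.0% of all genes were called in any of its comparisons. In 6 transgenic against 6 other libraries, 7 members passed at unadjusted p, 5 higher and 2 lower, against 16.3% of all genes, and the lowest adjusted p among members was 0.139. In Mdmx-Tg against Wild-type 4 members passed at unadjusted p (10.5% of all genes), and in the double mutant against Pu.1-URE-/- 5 did (10.7% of all genes). DESeq2 called 5, 3 and 2 members in these comparisons, and 6.77%, 2.19% and 2.19% of all genes. Rgs18, Gng11 and Fermt3 were called by DESeq2 in the first and the second, and by edgeR in the first when Mdmx-Tg 3 was left out. Over all genes, leaving out single libraries gave 0 to 447 edgeR calls in the first comparison. The edgeR calls of Rgs18, Gng11 and Fermt3 are thus no result about these members alone.

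Rgs18 (chromosome 1, 144752683 to 144775435) had 392, 476 and 731 CPM in the double mutant and 187, 316 and 223 CPM in Pu.1-URE-/-. It had 859, 1088 and 314.5 CPM in Mdmx-Tg, next to 255, 277 and 270.3 CPM in Wild-type. Mdmx-Tg 3, close to the level of libraries without the transgene, lay just below Pu.1-URE-/- 2, and all other transgenic libraries were above all those without it. The mean was 643 ± 301 CPM with and 255 ± 44.8 CPM without the transgene (SD, n = 6 each; log2 change 1.32 ± 0.28, SE, edgeR adjusted p = 0.139, and 0.02 without Mdmx-Tg 3).

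Fermt3 (chromosome 19, 6998958 to 7019469) lay lower in every transgenic library than in every other, which held for 0.506% of all genes. It had 279.5, 165 and 223 CPM in the double mutant and 343, 283.5 and 364.5 CPM in Pu.1-URE-/-. It had 196, 145 and 183 CPM in Mdmx-Tg, next to 315, 302 and 309 CPM in Wild-type. The mean was 199 ± 47.6 CPM with and 319.6 ± 29.4 CPM without the transgene (SD, n = 6 each; log2 change -0.70 ± 0.15, SE, edgeR adjusted p = 0.139, and 0.0425 without Mdmx-Tg 3).

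Gng11 had 73.7, 58.8 and 64.9 CPM in the double mutant and 48.4, 61.4 and 48.3 CPM in Pu.1-URE-/-, against 75.8, 56.1 and 48.7 CPM in Mdmx-Tg, next to 36.7, 27.3 and 24.6 CPM in Wild-type. Its 3 Wild-type libraries were the lowest of the 12 (transgene log2 change 0.67 ± 0.16, SE, edgeR adjusted p = 0.139, and 0.0492 without Mdmx-Tg 3). Plek had 156, 46.7 and 109 CPM in the double mutant and 27.5, 53.7 and 31.2 CPM in Pu.1-URE-/-, a log2 change of 1.47 ± 0.40 (SE, edgeR adjusted p = 0.406). In Mdmx-Tg and Wild-type, Plek had 73.4, 78.4 and 59.7 CPM and 44.0, 55.8 and 61.1 CPM. The cargo genes lowered by element loss did not pass for the transgene. Pf4 averaged 21.8 ± 19.9 CPM with and 24.3 ± 34.6 CPM without the transgene, and Vwf 12.9 ± 12.6 and 10.8 ± 9.28 CPM (SD, n = 6 each; edgeR adjusted p = 0.963 and 0.892).

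**Figure D5:**
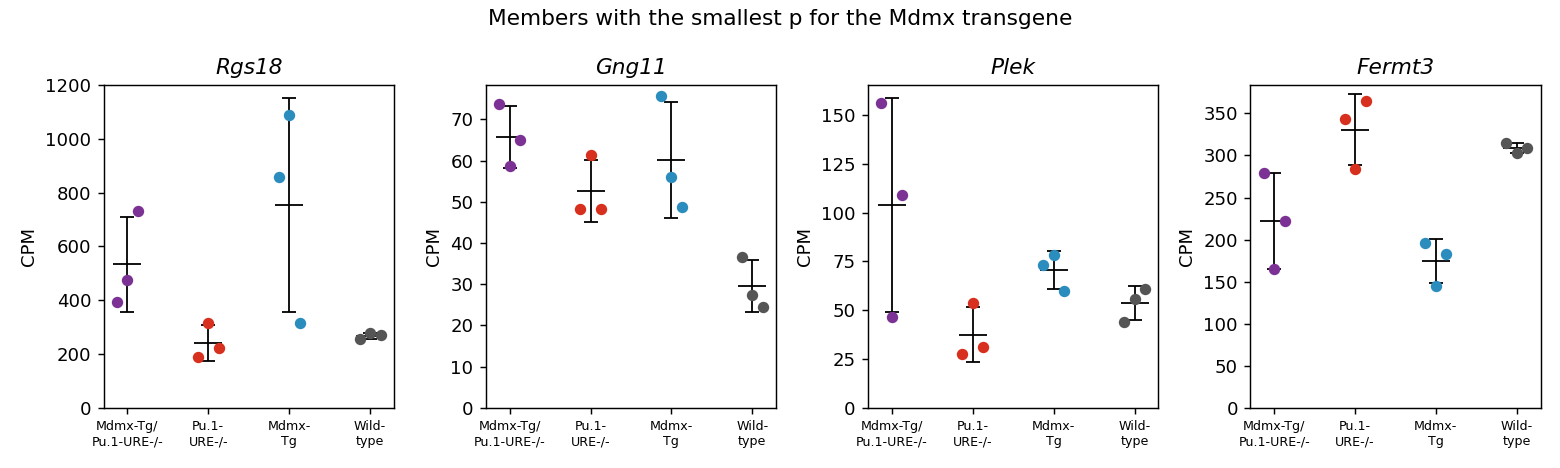
CPM of 4 members with small unadjusted p for the Mdmx transgene, by genotype (dots, single libraries; bars, mean ± SD, n = 3). Fermt3 is lower in all 6 transgenic libraries than in the 6 others, and Mdmx-Tg 3 is the low dot of Rgs18 at 314.5 CPM.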

How the data were processed

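RNA-seq of polyA-selected RNA was run on a BGISEQ-500 as paired 100-base reads, per the labels' protocols. The authors deposited 1 Salmon table per library, with estimated counts and TPM per transcript, per the file headers and the submitters' processing notes. The submitters' processing notes name FastQC, Salmon, DESeq2, mm10 and GRCm38, and the versions and the strand setting are not given in the sources used here. Of 116248 transcripts, 115995 (99.78%) matched GENCODE M21, and the rest held 0.0379% to 0.0841% of reads and were left out. The expected counts were summed per gene and rounded, since 35.25% of values were not whole, and TPM was summed likewise.

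Genes were filtered with edgeR 4.0.16 (filterByExpr with a minimum count of 10 and a minimum total of 15), normalised with TMM factors and tested with the quasi-likelihood test, with 4 genotype means over the 12 libraries, in R 4.3.3. P-values were adjusted by Benjamini-Hochberg over 15012 genes, with a threshold of 0.05. The 6 against 6 comparisons average the matching pairs of genotype means. The steps were tested on simulated data. The alternatives were other scaling, DESeq2 1.42.0, limma-voom (limma 3.58.1), other filters, a transcript-length offset, only the genotypes compared, a replicate block, the mouse-number series, 3 libraries left out together, immunoglobulin genes left out, and each library left out. The labels give mouse numbers but no series, which was drawn from those numbers for the fits.

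The members and gene lists (regulators, other platelet genes, stem cell and sorting gate, neutrophil, erythroid, monocyte, B, T and NK, mast cell, endothelial, stromal and lineage-defining genes) were chosen with earlier results of these data known. Members called in a comparison, members whose groups did not overlap on element loss, and those with the highest CPM of each role were described in full. Of the 2 further platelet lists, only called genes were named. A fold against a group at 0 was set against 3 reads over the group. Depth of about equal size in all libraries limits low members most, and intervals and floors cover counting error only.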

Additional observations from a re-analysis of the deposited data

Results flagged for a closer look

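Among the 6 libraries without, or the 6 with, the Spi1 element, 5 of 65 sets of member values held a library far from the other 5 by Dixon's gap criterion. Chance flags about 1 in 20 when all 6 values come from a single normal distribution. These sets pool 2 genotypes and some lie near 0 CPM, so that rate need not hold for them. Gp5 was 3.21 CPM in double-mutant 3, with the next library without the element at 6.94 CPM. Gp6 was 1.29 CPM in Pu.1-URE-/- 2, next to 0.322 CPM. Clec1b was 0.828 CPM in Pu.1-URE-/- 3, next to 0.161 CPM. Zfpm1 was 10.5 CPM in Pu.1-URE-/- 2, next to 4.05 CPM. Among the libraries with the element, Tubb1 was 1.04 CPM in Wild-type 1 and 0 in the other 5. Pu.1-URE-/- 2, which held 2 of the 5, had the lowest neutrophil marker sum of the Pu.1-URE-/- libraries, at 51970 CPM. None of the 5 genes was called in any comparison by edgeR with all libraries.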

How the results depend on the processing

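Of 1298 values of 58 gene results under alternatives, 1153 kept their side of the threshold, 113 lost a call, 32 gained one and 0 turned direction. Members called on element loss (8) numbered 11 by DESeq2, 6 by limma-voom, 5 with a replicate block and 3 with the mouse-number series. They numbered 2 without Wild-type 1, Mdmx-Tg 2 and double-mutant 3 together, and 3 to 8 with each library left out. In Pu.1-URE-/- against Wild-type (1) they numbered 6 by DESeq2, 2 by limma-voom, 2 without those 3 libraries and 1 to 2 with each library left out. In the double mutant against Mdmx-Tg (0) they numbered 6 by DESeq2, 1 with genes over 1 CPM in 3 libraries, 1 without immunoglobulin genes, and 0 to 1 with each library left out. For the transgene, DESeq2 called 3 members in Mdmx-Tg against Wild-type, 2 in the double mutant against Pu.1-URE-/- and 5 in 6 against 6, and leaving out each library gave 0 to 1, 0 and 0 to 3.

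Over all genes, DESeq2 called 3018 on element loss (edgeR 1785), 1881 in Pu.1-URE-/- against Wild-type (707), 1289 in the double mutant against Mdmx-Tg (348), 329 in each transgene pair, 1016 for the transgene in 6 against 6, and 194 for the interaction (edgeR 0 in these). The mouse-number series gave 257 in Pu.1-URE-/- and 156 in the double mutant against their references, and leaving out those 3 libraries gave 1032 and 111 for element loss and the double mutant. With each library left out the counts were 952 to 1750 on element loss, 299 to 789, 136 to 347, 0 to 109 (Mdmx-Tg), 0 to 4 (double mutant against Pu.1-URE-/-), 0 to 447 (transgene, 6 against 6) and 0 for the interaction. The causes were not tested.

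Replicate numbers did not pair samples: same-numbered deviations correlated at -0.192 to 0.139 over 18 pairs, with 2 over 0.1. The block with 5 members called kept Cd9, Lat, Nfe2, Pf4 and Trpc6.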

Other observations

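At transcript level, the reads of Pf4 were 93.2% from its main coding transcript, which had 13 to 666 estimated reads in libraries lacking the element and 876 to 5728 in the rest. The main F13a1 coding transcript, with 77.5% of that gene's reads, had 0 in each of the 6 libraries that lack the element and 0 to 1252 in the others. Its second coding transcript had 0 to 16 and 0 to 279.8. A minor coding transcript of Trpc6 (10.6% of reads) had at most 3.34 estimated reads without and 6.47 to 501 with the element, and the main one 146.9 to 501 and 302 to 2440. A retained-intron transcript of P2rx1, whose gene total overlapped between groups, had 0 to 207 without and 193 to 798 with the element. Of the 34 members, 12 had a second transcript with at least 10% of their reads, and in 8 the leading transcript differed between libraries. These assignments are Salmon's estimates, not scaled for depth, and were not tested.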
